A study of Mus musculus with 14 samples.

Results

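The genes described here are 33 genes of glycolysis and of the transcriptional response to low oxygen, out of 24463 genes measured in 14 libraries of mouse leukemic stem cells (LSCs). They were chosen by symbol from textbook roles: 2 glucose transporters, 10 enzymes of upper glycolysis and its control, 5 enzymes of lower glycolysis, 5 genes of lactate export and pyruvate use, the oxygen-regulated factor Hif1a with 2 prolyl hydroxylases, 7 other targets of that factor, and G6pdx at the entry of the pentose phosphate pathway. Gapdh was left out for its pseudogenes. The symbols of all 33 genes were found in the files.

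Glycolysis turns glucose into pyruvate, which is either reduced to lactate and exported or burned in mitochondria. Hypoxia-inducible factor 1 (HIF-1) is a heterodimer whose alpha subunit, encoded by Hif1a, is hydroxylated by the Egln prolyl hydroxylases when oxygen is present and is then degraded. When it is stable it binds the core sequence ACGTG. It then raises transcription of glucose transporters, most glycolytic enzymes, kinases that hold back the burning of pyruvate, and its own hydroxylases. Blood stem cells and leukemic cells are both known for a strong reliance on glycolysis.

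The cells came from mouse bone marrow depleted of lineage-positive cells and transduced 2 times, 24 h apart, with a retrovirus for p210 BCR-ABL, the fusion kinase of chronic myeloid leukemia. At 48 h the GFP+ cells of the lineage-negative, Sca1+, c-Kit+ gate were sorted as LSCs. Control LSCs were then exposed for 6 h to 20 µM prostaglandin E1 (PGE1, n = 3), to 20 µM prostaglandin E2 (PGE2, n = 2) or to the solvent DMSO (n = 3), and untreated LSCs came from Tcf1/Lef1-deficient mice (dKO, n = 3) or wild-type mice (WT, n = 3). All groups carried BCR-ABL and had grown in serum (15%), stem cell factor (50 ng/ml) and thrombopoietin (20 ng/ml). PGE2 has a double bond in its carboxyl side chain that PGE1 lacks. The labels do not say how Tcf1 and Lef1 were deleted. They also leave unstated whether the replicates are separate animals or cultures; p-values therefore reflect only the spread between these libraries, which may be technical.

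Because the genes were picked as targets of one DNA-binding factor and its pathway, their promoters were read for its core sequence. RefSeq starts on the mouse build GRCm38.p6 were matched for 30 of the 33 genes, through the synonym Ero1a for Ero1l; Bnip3l, Ndrg1 and Slc2a3 are named only. The 250 bases before each start were searched for ACGTG on both strands, where the palindrome CACGTG counts as 1 place. The sequence was present in 23 of 43 promoters (53.5%), against 16.6% of all 32851 promoters and 22.3% of the 10618 promoters of genes that averaged 1 FPKM or more here (FPKM are fragments scaled to gene length and library size). The palindrome was present in 14% of these promoters and in 6.02% of all. Median GC content was 62.8% in the chosen promoters and 60% in those of expressed genes, and its part in the difference was not tested. A match is only a run of letters in this window.

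The 4 promoters printed were picked for holding the sequence, from the 13 genes that passed the test in 4 of the 5 comparisons below; the promoters of Gpi1, Pfkl and Tpi1 among those 13 genes hold none. Of the 4, 2 are of lactate metabolism and 2 outside glycolysis. Each is given 5′ to 3′ on the strand of its gene and ends at the base before the start, with ACGTG or its complement CACGT in capitals. They lie at chr7:46845554-46845803 on the plus strand for Ldha, at chr3:104638414-104638663 on the plus strand for Slc16a1, at chr10:59323046-59323295 on the plus strand for P4ha1 and at chr8:45999851-46000100 on the minus strand for Ankrd37.
Ldha: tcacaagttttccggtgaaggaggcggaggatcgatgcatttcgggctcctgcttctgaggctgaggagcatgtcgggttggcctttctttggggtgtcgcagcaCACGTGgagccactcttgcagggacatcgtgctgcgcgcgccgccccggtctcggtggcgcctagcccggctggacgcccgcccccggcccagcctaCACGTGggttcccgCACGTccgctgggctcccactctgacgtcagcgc
Slc16a1: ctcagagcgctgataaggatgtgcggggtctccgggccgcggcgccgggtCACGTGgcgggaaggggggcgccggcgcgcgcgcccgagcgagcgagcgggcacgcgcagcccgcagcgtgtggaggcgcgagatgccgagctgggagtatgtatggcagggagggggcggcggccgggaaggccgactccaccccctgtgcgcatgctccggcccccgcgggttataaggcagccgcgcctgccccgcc
P4ha1: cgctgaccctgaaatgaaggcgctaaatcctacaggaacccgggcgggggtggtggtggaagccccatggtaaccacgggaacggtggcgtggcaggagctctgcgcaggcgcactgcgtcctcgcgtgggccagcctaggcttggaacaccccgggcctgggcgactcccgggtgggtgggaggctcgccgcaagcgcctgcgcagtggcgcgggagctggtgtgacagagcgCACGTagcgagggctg
Ankrd37: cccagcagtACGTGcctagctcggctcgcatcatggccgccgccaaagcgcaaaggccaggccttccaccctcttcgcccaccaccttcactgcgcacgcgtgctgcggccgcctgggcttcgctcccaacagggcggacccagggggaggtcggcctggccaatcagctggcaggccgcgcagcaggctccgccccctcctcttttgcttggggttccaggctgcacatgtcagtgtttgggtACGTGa
Ldha, which encodes the lactate dehydrogenase subunit that makes lactate, had 3 places, the most of any of the 43 promoters, while its other promoter had none. Ankrd37, a small ankyrin repeat protein, had 2, and Slc16a1 and P4ha1 had 1 each.

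Library totals were 19.0 to 22.7 M reads in treated cells and 31.3 to 33.8 M in untreated cells, of which 11.3 to 13.4 M and 19.0 to 20.6 M lay in genes. Group labels were taken from titles: for DMSO replicate 1 and dKO replicate 1 the genotype field says otherwise. Tcf7, the gene of Tcf1, stood at 0.142, 0.0220 and 0.135 FPKM in dKO and at 1.03, 0.850 and 1.53 FPKM after DMSO, against 1.48, 1.15 and 1.30 FPKM in WT, so both libraries went with their titles. Lef1 was low throughout, at 0.184, 0.105 and 0.165 FPKM in dKO and 0.279, 0.181 and 0.166 FPKM after DMSO, against 0.319, 0.307 and 0.223 FPKM in WT, and its dKO and DMSO levels overlapped, so it checks no label. Within the groups of 3, the libraries were not the highest equally often. DMSO replicate 1 was the highest DMSO library for 45.4% of the 11078 genes averaging 1 FPKM or more, PGE1 replicate 2 the highest PGE1 library for 42.5%, WT replicate 2 the highest WT library for 39.3% and dKO replicate 1 the highest dKO library for 39.2%. Stem and progenitor genes were present in every library but not at one level. The 6 listed were Kit and Ly6a, of the sort gate, and Cd34, Gata2, Myb and Meis1, which are outside it. Ly6a, the gene of Sca1, was at 2.86 to 3.53 FPKM in dKO against 10.4 to 12.6 FPKM in WT, and did not pass after PGE1 (limma adjusted p = 0.308). Cd34 fell in dKO (34.5 to 37.3 FPKM against 64.0 to 67.2 FPKM in WT) and after PGE1 (18.8 to 20.3 FPKM against 39.5 to 42.7 FPKM after DMSO). Of the 6 listed genes 3 rose after PGE1, 1 fell and 2 did not pass. Kit stood at 35.4 to 48.5 FPKM after PGE1 against 23.2 to 27.6 FPKM after DMSO. Gata2 and Meis1 also rose, to 57.0 to 62.5 against 38.3 to 40.7 FPKM and to 14.2 to 16.4 against 6.68 to 7.12 FPKM. The part of these differences in the results was not tested. In bulk samples, fewer cells of a type and less RNA per cell cannot be told apart.

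All but 1 of the 33 genes were tested. Eno2, the neuronal enolase, averaged 0.983 FPKM after PGE1, 0.604 after PGE2, 0.785 after DMSO, 0.0249 in dKO and 0.327 in WT, below the minimum mean of 1 FPKM in every fit. The levels of the other 32 spanned from P4ha2, at 0.436 ± 0.161 FPKM after PGE1, to Aldoa, at 802.4 ± 128 FPKM in dKO (SD, n = 3). Per length, Aldoa (an aldolase), Pkm (pyruvate kinase) and Ldha were the most abundant in WT, at 604.3 ± 26.8, 528.8 ± 21.3 and 482.6 ± 19.9 FPKM. Eno1, Pgk1, Pgam1, Ldha, Aldoa and Tpi1 have near-identical copies elsewhere in the genome, so their levels are uncertain. Ordered by group mean, PGE1 was the lowest of the 5 groups for 20 of the 32 genes (36.2% of all 11078 genes) and dKO the highest for 22 (33.8% of all genes). PGE2 was the highest for 6 (5.92% of all genes). Treated and untreated libraries also differ in depth, time in culture and solvent, which cannot be told apart in this order.

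**Figure D1:**
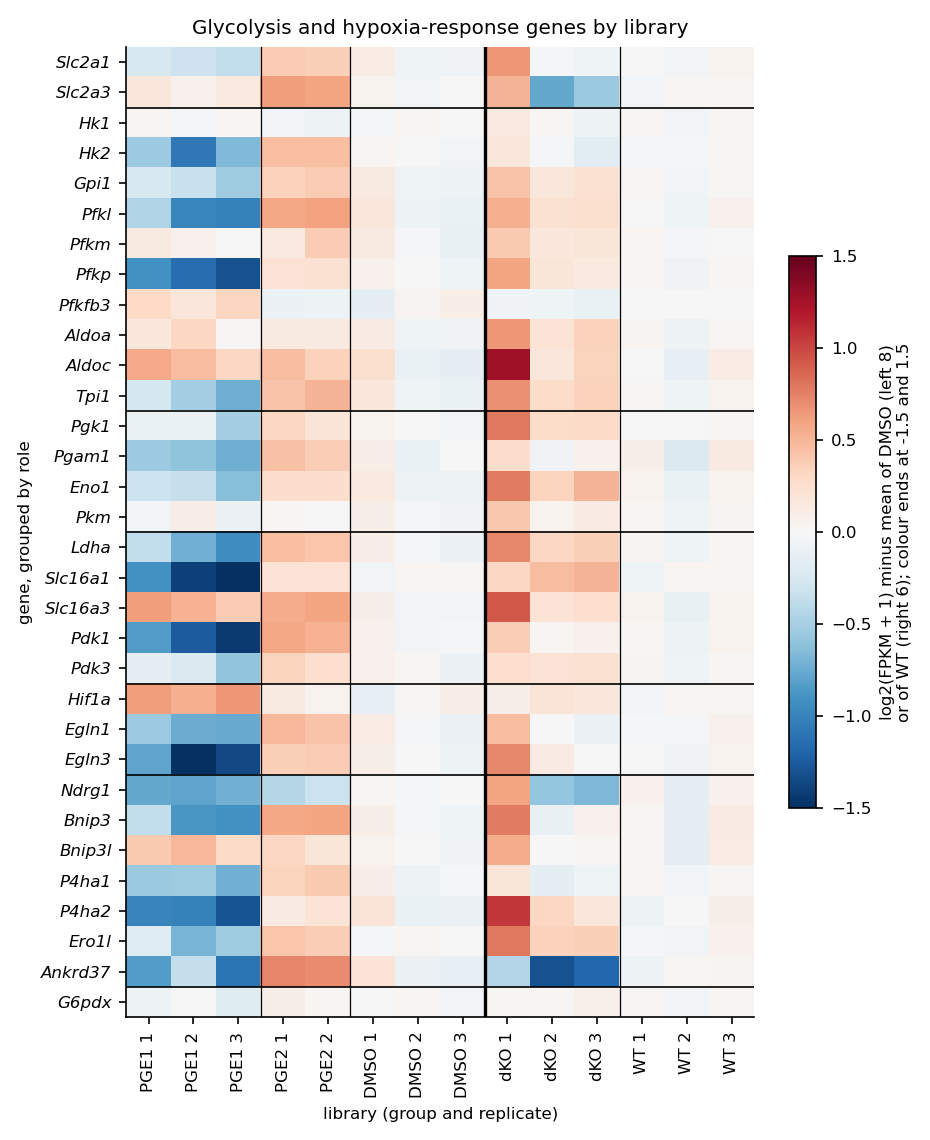
Each row is 1 of the 32 tested genes, in the order of its role, and each column a library; colour is the log2(FPKM + 1) difference from the mean of DMSO for PGE1, PGE2 and DMSO libraries and from the mean of WT for dKO and WT libraries. Most rows are blue in the 3 PGE1 columns and red in the 2 PGE2 columns, and dKO replicate 1 is redder than dKO replicates 2 and 3 in most rows.

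The first comparison set PGE1 against its solvent. Glycolytic and HIF-target genes were mostly lower after PGE1, while Hif1a itself was higher: of 32 genes tested, 20 fell (62.5%), 5 rose and 7 did not pass at a limma adjusted p of 0.05. Among all 11242 genes tested, 49.1% passed, 25.5% lower and 23.6% higher. The 3 PGE1 libraries lay below all 3 DMSO libraries for 21 of the 32 genes and above them for 6, where 57.2% of all genes did not overlap, 29.2% lower and 27.9% higher. The median log2 difference was -0.45 over the 32 genes and 0.01 over all genes.

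Slc16a1 showed the largest fall on the log2(FPKM + 1) scale. It encodes MCT1, a carrier of lactate and pyruvate across the plasma membrane, and stood at 10.2, 6.94 and 6.38 FPKM after PGE1, against 19.4, 20.5 and 20.2 FPKM after DMSO. The groups did not overlap, and PGE1 replicate 1 was the highest of its group. The mean was 2.55-fold lower (log2 difference -1.27, SE 0.14, limma adjusted p = 0.000119). Slc16a3, which encodes MCT4, the lactate exporter of highly glycolytic cells, went the other way, at 125, 116 and 105 FPKM after PGE1 against 85.7, 78.3 and 78.1 FPKM after DMSO (0.51, SE 0.08, limma adjusted p = 0.000789). As a share of the summed FPKM of the 2 carriers, Slc16a1 made up 7.58%, 5.65% and 5.73% after PGE1, against 18.5%, 20.7% and 20.6% after DMSO.

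Pdk1 and Pdk3 encode kinases that switch off pyruvate dehydrogenase and so hold back the burning of pyruvate in mitochondria. Pdk1 stood at 8.10, 5.86 and 5.05 FPKM after PGE1 and at 16.1, 14.9 and 15.0 FPKM after DMSO, 2.41-fold lower in the mean (-1.17, SE 0.13, limma adjusted p = 0.000146). Every PGE1 library lay below every DMSO library. Pdk3 fell less, to 14.2 ± 2.42 FPKM after PGE1 against 17.9 ± 1.07 FPKM after DMSO (SD, n = 3 each; limma adjusted p = 0.0419), a call lost without any 1 of the 3 DMSO libraries (limma adjusted p = 0.0553 to 0.117), PGE1 replicate 3 (0.0782), PGE2 replicate 1 (0.0628) or PGE2 replicate 2 (0.0627). Ldha fell 1.58-fold, to 214.1 ± 42.6 FPKM against 338.8 ± 23.2 FPKM (limma adjusted p = 0.00312). The carriers, kinases and dehydrogenase thus gave 4 falls and 1 rise among 5 genes.

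In upper glycolysis the isozymes of single steps parted. Hk2, the hexokinase that HIF-1 induces, stood at 19.6, 13.4 and 18.1 FPKM after PGE1 against 29.7, 29.4 and 28.4 FPKM after DMSO (-0.76, SE 0.12, limma adjusted p = 0.000851). Hk1, the constitutive hexokinase, averaged 84.3 ± 1.49 FPKM after PGE1 and 83.7 ± 1.63 FPKM after DMSO (log2 difference 0.01, 95% interval -0.11 to 0.13, limma adjusted p = 0.896). Hk2 made up 18.8%, 14% and 17.5% of the summed FPKM of Hk1 and Hk2 after PGE1, against 26.6%, 25.6% and 25.4% after DMSO. That sum leaves out Hk3, a hexokinase that is not among the 33 genes. Hk3 stood at 29.0 to 39.8 FPKM after PGE1 against 69.8 to 78.3 FPKM after DMSO. Phosphofructokinase commits sugar to glycolysis and has a platelet, a liver and a muscle form. The platelet form Pfkp stood at 28.2, 23.9 and 21.2 FPKM after PGE1 against 56.5, 53.4 and 51.5 FPKM after DMSO (-1.12, SE 0.10, limma adjusted p = 3.59e-05). The liver form Pfkl stood at 45.6, 31.1 and 30.4 FPKM after PGE1 against 70.5, 59.2 and 58.4 FPKM after DMSO (-0.82, SE 0.15, limma adjusted p = 0.00186). Neither form overlapped between the groups. The muscle form Pfkm did not pass (6.51 ± 0.363 FPKM after PGE1, 6.18 ± 0.612 after DMSO; log2 difference 0.07, 95% interval -0.14 to 0.28), and its share of the 3 forms was 8.52%, 10.6% and 10.7% after PGE1 against 5.1%, 5.11% and 4.87% after DMSO. Pfkfb3, which makes the activator of phosphofructokinase, rose to 26.1 ± 1.56 FPKM against 21.7 ± 1.88 FPKM (limma adjusted p = 0.0196). That call was lost without DMSO replicate 1 (0.0593), PGE1 replicate 1 (0.0506) or PGE1 replicate 3 (0.0619).

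Other steps fell by smaller amounts. Tpi1 (triose phosphate isomerase), Eno1 (the main enolase), Gpi1 (glucose phosphate isomerase, which acts before phosphofructokinase) and Pgam1 (phosphoglycerate mutase) were 1.41-, 1.35-, 1.29- and 1.67-fold lower, with limma adjusted p of 0.00883, 0.00717, 0.0116 and 0.000314. Aldoc, a minor aldolase, rose to 4.89 ± 0.533 FPKM against 3.34 ± 0.646 FPKM (limma adjusted p = 0.0133), lost without DMSO replicate 2 (0.0522) or 3 (0.0526). Aldoa, Pkm and Pgk1 (phosphoglycerate kinase) did not pass, with intervals of the log2 difference of -0.08 to 0.41, -0.22 to 0.20 and -0.48 to 0.01. Of the 2 glucose transporters Slc2a1 (GLUT1) fell 1.24-fold (limma adjusted p = 0.00502, and 0.0794 in 1 fit of all 14 libraries), and Slc2a3 (GLUT3) averaged 26.3 FPKM after PGE1 and 24.0 FPKM after DMSO (0.0967). G6pdx, the first enzyme of the pentose phosphate pathway, did not pass either, at 67.9 ± 4.40 FPKM after PGE1 and 72.0 ± 1.78 FPKM after DMSO (limma adjusted p = 0.305; interval -0.23 to 0.06). The 20 falls and 5 rises thus left 7 genes not past: Hk1, Pfkm, Aldoa, Pgk1, Pkm, Slc2a3 and G6pdx.

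Hif1a and the 2 prolyl hydroxylases among the 33 genes moved in opposite directions. Hif1a stood at 50.0, 46.9 and 50.8 FPKM after PGE1 against 29.4, 32.5 and 34.4 FPKM after DMSO (0.60, SE 0.07, limma adjusted p = 0.000176). Egln3 (PHD3), a hydroxylase that HIF-1 induces, stood at 34.3, 20.5 and 22.9 FPKM after PGE1 against 63.5, 59.5 and 56.7 FPKM after DMSO (-1.21, SE 0.16, limma adjusted p = 0.000323). Egln1 (PHD2), the main oxygen sensor of this family, fell 1.65-fold (limma adjusted p = 0.000185). No PGE1 library overlapped a DMSO library for any of these 3 genes. Egln2 (PHD1), which is outside the 33 genes, did not fall. It stood at 29.5, 33.8 and 27.1 FPKM after PGE1 against 27.9, 24.2 and 24.7 FPKM after DMSO.

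Among 7 other HIF targets 6 fell and 1, Bnip3l, rose. P4ha2, a subunit of the collagen prolyl hydroxylase, was under 1 FPKM after PGE1, with 62 reads over its 3 libraries, at 0.539, 0.517 and 0.251 FPKM against 2.504, 1.88 and 1.89 FPKM after DMSO (-1.11, SE 0.12, limma adjusted p = 0.000138). Its paralog P4ha1 fell 1.55-fold (limma adjusted p = 0.000207). Ndrg1, a differentiation and stress gene, stood at 20.5, 20.2 and 21.2 FPKM after PGE1 against 36.2, 35.2 and 35.6 FPKM after DMSO (-0.76, SE 0.06, limma adjusted p = 1.56e-05). Both its groups were tight. Ankrd37 stood at 4.07, 6.07 and 3.26 FPKM after PGE1 against 9.49, 7.55 and 7.34 FPKM after DMSO (-0.76, SE 0.17, limma adjusted p = 0.00594). Bnip3 and Bnip3l are paralogs that mark mitochondria for removal. Bnip3 fell 1.70-fold (limma adjusted p = 0.00219), whereas Bnip3l rose 1.34-fold (0.00234). Ero1l, an oxidase of the endoplasmic reticulum, fell 1.39-fold (0.00789).

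**Figure D2:**
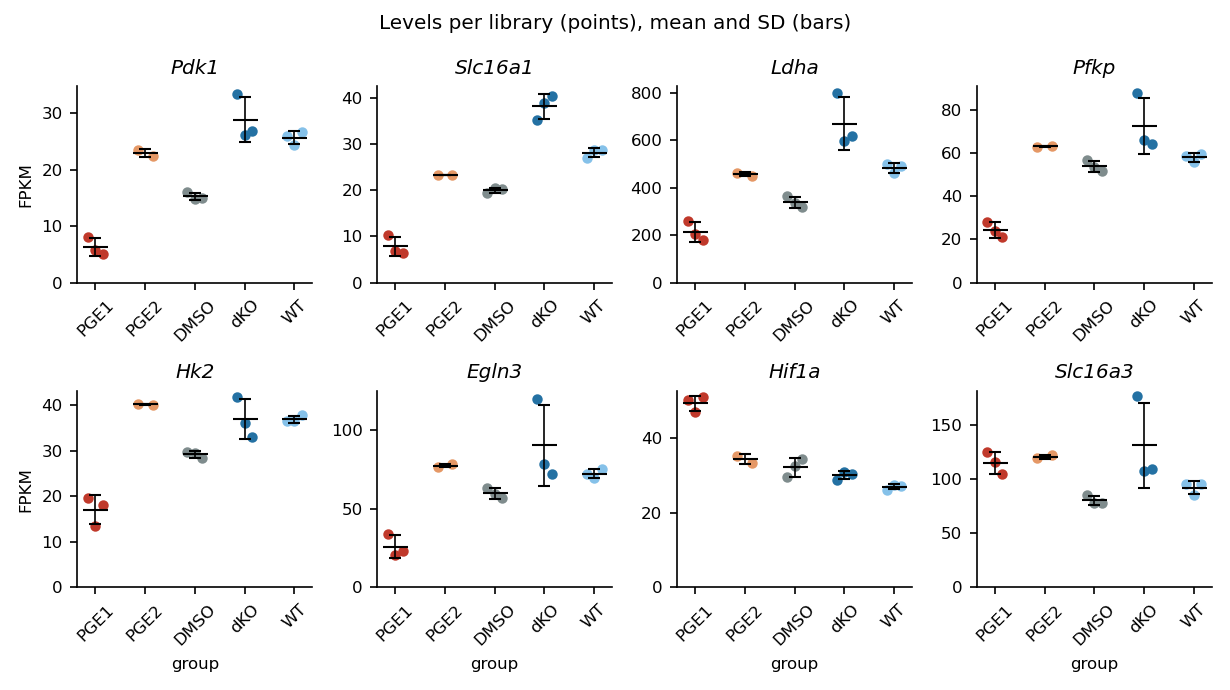
FPKM of 8 genes in each library, as points, with the mean and SD of each group as bars, and the groups PGE1, PGE2, DMSO, dKO and WT from left to right. In the panels of Pdk1, Slc16a1, Ldha, Pfkp, Hk2 and Egln3 the PGE1 points lie lowest, while in those of Hif1a and Slc16a3 they lie above the DMSO points.

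The PGE1 libraries differed among themselves in order. PGE1 replicate 1 was the highest of the 3 for 21 of the 32 genes (27.6% of all genes) and PGE1 replicate 3 the lowest for 24 (33% of all genes). Leaving out any 1 library of the fit gave 23 to 27 genes past the threshold, with 23 (19 lower, 4 higher) without DMSO replicate 1, whose genotype field goes against its title. Most neutrophil markers were lower as well. Of 9 markers 7 fell and 2, S100a8 and S100a9, did not pass, and their sum, set mainly by the granule genes Elane and Mpo, was 1538 to 2231 FPKM after PGE1 and 4004 to 4754 FPKM after DMSO, with no marker at 0. Elane stood at 323.9 to 623.4 FPKM after PGE1 against 1176 to 1440 FPKM after DMSO, and Mpo at 186.8 to 494.3 FPKM against 1252 to 1472 FPKM. Of 8 monocyte markers 2 rose and 4 fell, so their sums (833.3 to 1064 FPKM after PGE1, 812 to 953.2 FPKM after DMSO) hide opposite changes: Cd14, an endotoxin coreceptor, was at 255.2 to 339.5 FPKM after PGE1 against 44.7 to 47.7 FPKM after DMSO, and the macrophage receptor Adgre1 at 3.24 to 3.52 FPKM against 16.7 to 17.9 FPKM. Of the T and NK cell genes Nkg7 alone was tested, at 7.06 to 15.8 FPKM after PGE1 against 39.9 to 46.8 FPKM after DMSO, while Cd3e, under 1 FPKM, was at 0.199 to 0.535 FPKM after PGE1 against 0 to 0.0969 FPKM after DMSO. The part of these markers' cells in the result was not tested.

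The same DMSO libraries served as the base for PGE2, so the 2 comparisons share them. After PGE2 few of the genes passed, most of those higher: 6 of 32 rose (18.8%), 1 fell and 25 did not pass. Among all 11242 genes 5.57% passed, 0.996% higher and 4.57% lower. The median log2 difference was 0.37 over the 32 genes and 0.00 over all genes. The 2 PGE2 libraries lay above all 3 DMSO libraries for 25 of the 32 genes, as they did for 25.0% of all genes, and below them for 2, as for 24.1% of all genes (49.1% in either direction).

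Both glucose transporters rose. Slc2a3 stood at 37.5 and 36.5 FPKM after PGE2 against 24.9, 23.2 and 23.8 FPKM after DMSO (0.61, SE 0.06, limma adjusted p = 0.00112). Slc2a1 stood at 77.6 and 76.3 FPKM after PGE2 against 63.9, 56.7 and 57.2 FPKM after DMSO (0.37, SE 0.07, limma adjusted p = 0.0237). DMSO replicate 1 was the nearest to PGE2 for both. Slc16a3 rose to 119.3 and 122.1 FPKM after PGE2, against 85.7, 78.3 and 78.1 FPKM after DMSO (0.58, SE 0.09, limma adjusted p = 0.00691).

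Egln1, Pgam1 and P4ha1 rose and Ndrg1 fell. Egln1 stood at 33.4 and 31.8 FPKM after PGE2 against 25.4, 23.0 and 21.9 FPKM after DMSO (0.46, SE 0.09, limma adjusted p = 0.0223). Pgam1 stood at 10.4 and 9.92 FPKM after PGE2 against 8.05, 6.88 and 7.42 FPKM after DMSO (0.40, SE 0.09, limma adjusted p = 0.0398). P4ha1 stood at 39.0 and 40.5 FPKM after PGE2 against 32.9, 28.9 and 30.3 FPKM after DMSO (0.37, SE 0.08, limma adjusted p = 0.0379). No PGE2 library overlapped a DMSO library for these genes. Ndrg1, alone among the genes that passed, was lower, at 26.2 and 28.4 FPKM after PGE2 against 36.2, 35.2 and 35.6 FPKM after DMSO (-0.38, SE 0.06, limma adjusted p = 0.0110).

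None of the 10 genes of upper glycolysis passed with limma after PGE2, although 6 were higher at an unadjusted p under 0.05 and 3 passed with voom on the recovered reads. Over all genes 6.92% passed with voom, and the share at an unadjusted p under 0.05 was not counted. Pfkl had the smallest p, at 93.8 and 95.6 FPKM after PGE2 against 70.5, 59.2 and 58.4 FPKM after DMSO (0.59, SE 0.16, limma adjusted p = 0.0763). Ankrd37 showed the largest difference, 0.72 (95% interval 0.28 to 1.16, limma adjusted p = 0.0684), with 14.1 and 13.8 FPKM after PGE2. G6pdx averaged 74.9 FPKM after PGE2 and 72.0 FPKM after DMSO (limma adjusted p = 0.715, interval -0.11 to 0.22; unadjusted p = 0.454).

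The count after PGE2 moved when single libraries were left out. Without PGE2 replicate 1 or 2, 1 PGE2 library is left, so no count is given. The median log2 difference over the 32 genes was then 0.36 and 0.35, against 0.37 in the main fit. The count was 2 without DMSO replicate 2 or without DMSO replicate 3. It was 14 without PGE1 replicate 1 and 12 without PGE1 replicate 2, which enter this fit only through the shared spread. Without DMSO replicate 1 it was 8. The share of all genes that passed moved as well, from 5.57% in the main fit. It was 6.95% without PGE1 replicate 1 and 10.9% without PGE1 replicate 2. Without DMSO replicates 1, 2 and 3 in turn it was 4.63%, 2.14% and 2.10%. None of the 7 calls was kept under each of the 18 alternatives tried. Of the 9 neutrophil markers 1, Ngp, rose after PGE2 and 8 did not pass; their sum was 5865 to 5922 FPKM after PGE2 against 4004 to 4754 FPKM after DMSO, and their part in the differences was not tested.

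**Figure D3:**
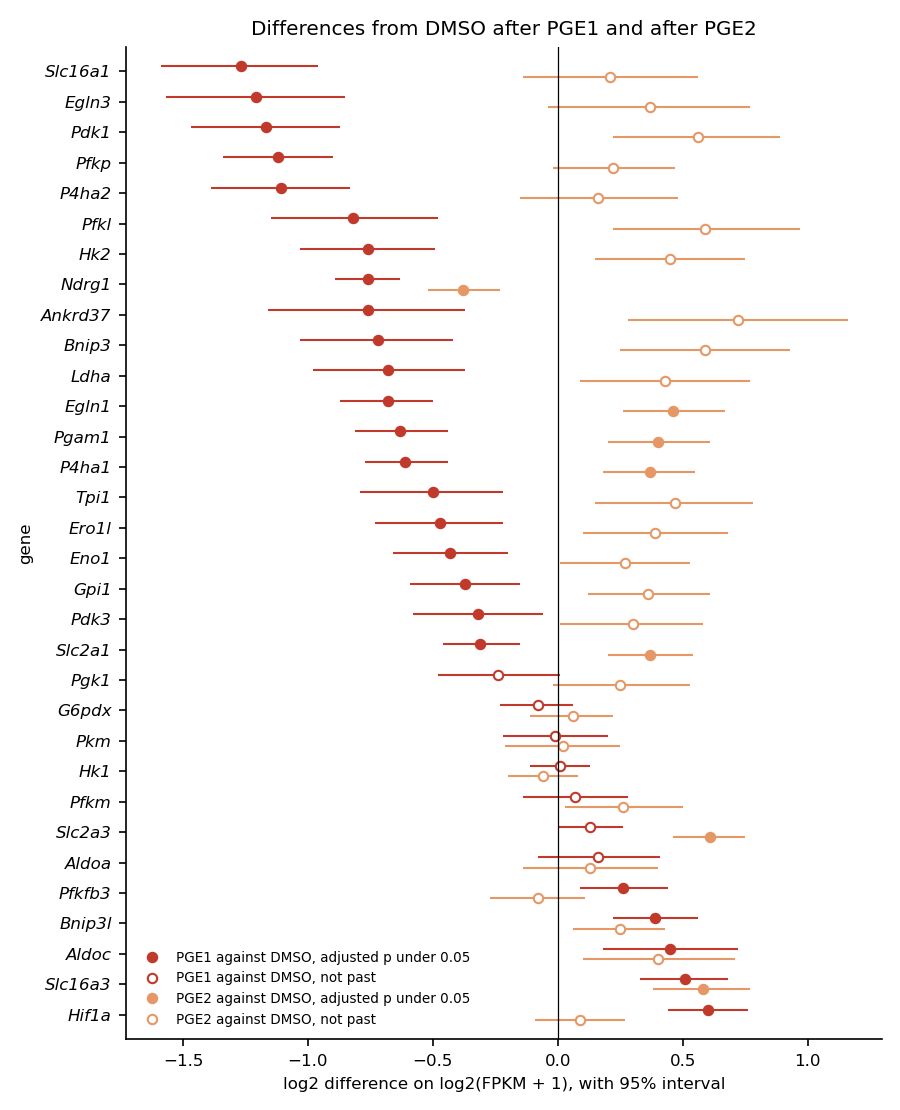
Log2 differences from DMSO, on log2(FPKM + 1), with 95% intervals, after PGE1 (red) and after PGE2 (orange) for the 32 genes, filled where the limma adjusted p is under 0.05. Filled red points lie left of 0 for 20 genes, down to -1.27 for Slc16a1, and right of 0 for 5; filled orange points lie right of 0 for 6 genes, up to 0.61 for Slc2a3, and left of 0 for Ndrg1.

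PGE1 and PGE2 were given at the same dose, 20 µM, and for the same 6 h, and this was the 1 pair of compounds compared. Genes of the pathway were lower after PGE1 than after PGE2: 22 of 32 were lower (68.8%), 2 higher and 8 not past, where 53.9% of all 11242 genes passed, 26.7% lower and 27.2% higher. All PGE1 libraries lay below both PGE2 libraries for 24 of the 32 genes and above them for 3, where 69.9% of all genes did not overlap, 33.7% lower and 36.2% higher. The median log2 difference was -0.72 over the 32 genes and 0.02 over all genes.

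Pdk1 differed most on the log2(FPKM + 1) scale, at 8.10, 5.86 and 5.05 FPKM after PGE1 against 23.5 and 22.5 FPKM after PGE2, 3.62-fold lower after PGE1 (-1.73, SE 0.15, limma adjusted p = 3.58e-05). Egln3, the HIF-induced hydroxylase, stood at 34.3, 20.5 and 22.9 FPKM after PGE1 against 76.7 and 78.3 FPKM after PGE2, and was 2.99-fold lower after PGE1 (-1.58, SE 0.18, limma adjusted p = 0.000130). The lactate carrier Slc16a1, at 10.2, 6.94 and 6.38 FPKM after PGE1 against 23.3 and 23.4 FPKM after PGE2, was 2.97-fold lower after PGE1 (-1.48, SE 0.15, limma adjusted p = 8.87e-05). The target Ankrd37 differed by the same log2 amount (-1.48, SE 0.19, limma adjusted p = 0.000275). Pfkl and Pfkp were 2.65- and 2.58-fold lower after PGE1 than after PGE2 (-1.41 and -1.34), with Pfkp at 28.2, 23.9 and 21.2 FPKM after PGE1 against 62.9 and 63.1 FPKM after PGE2. Bnip3 stood at 11.0, 7.41 and 7.21 FPKM after PGE1 against 22.2 and 22.3 FPKM after PGE2 (-1.31, SE 0.15, limma adjusted p = 0.000143). P4ha2, at 0.539, 0.517 and 0.251 FPKM after PGE1 against 2.36 and 2.54 FPKM after PGE2, differed by -1.27 (SE 0.14, limma adjusted p = 0.000108). In each of these 8 genes every PGE1 library lay below both PGE2 libraries.

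Hif1a and Pfkfb3 were the 2 genes higher after PGE1 than after PGE2. Hif1a averaged 49.2 ± 2.06 FPKM after PGE1 (n = 3) and 34.3 ± 1.29 FPKM after PGE2 (n = 2; 0.51, SE 0.08, limma adjusted p = 0.000722). Pfkfb3 averaged 26.1 FPKM after PGE1 and 20.4 FPKM after PGE2 (0.34, SE 0.09, limma adjusted p = 0.00860), a call lost without PGE2 replicate 1 (0.0586) or 2 (0.0514). The other 8 genes did not pass, and their 95% intervals of the log2 difference were -0.07 to 0.21 for Hk1, -0.43 to 0.04 for Pfkm, -0.24 to 0.30 for Aldoa, -0.26 to 0.34 for Aldoc, -0.26 to 0.20 for Pkm, -0.27 to 0.13 for Slc16a3, -0.04 to 0.33 for Bnip3l and -0.31 to 0.02 for G6pdx. The lactate exporter Slc16a3 averaged 115.1 ± 9.96 FPKM after PGE1 and 120.7 ± 1.97 FPKM after PGE2, and its interval covers folds in either direction.

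The shares of isozymes showed the same contrast without any scaling between libraries. Hk2 made up 33.1% and 33.5% of the summed FPKM of Hk1 and Hk2 after PGE2, above all PGE1 and DMSO libraries. Hk3, left out of that sum, stood at 96.4 and 96.1 FPKM after PGE2. Pdk1 made up 33.6%, 27.8% and 30.5% of Pdk1 and Pdk3 after PGE1, 50.6% and 51% after PGE2, and 46.1%, 44.9% and 47.3% after DMSO. Slc16a1 made up 16.3% and 16.1% of the 2 lactate carriers after PGE2, which is below the DMSO libraries and above the PGE1 libraries. No share of PGE1 overlapped one of PGE2 in these sums.

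**Figure D4:**
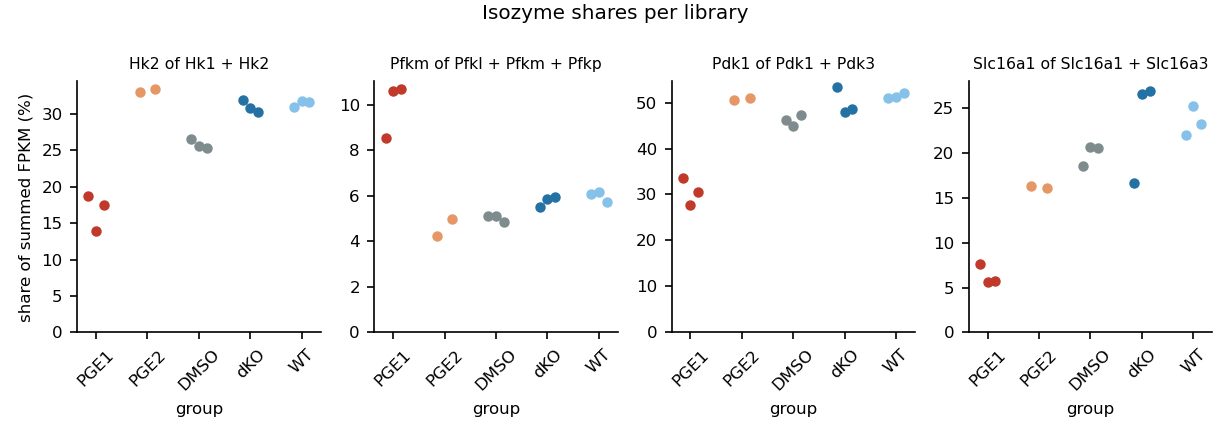
Share of 1 isozyme in the summed FPKM of the isozymes named above its panel, in percent, for each library. The groups are PGE1, PGE2, DMSO, dKO and WT from left to right. The sums leave out Hk3 and Pdk2. PGE1 points lie lowest for Hk2, Pdk1 and Slc16a1 and highest for Pfkm, at 8.52% to 10.7%.

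Leaving out 1 DMSO or PGE1 library gave 24 to 25 genes past the threshold between PGE1 and PGE2. Over all genes 49.1% to 59.3% then passed, against 53.9% in the main fit. Without PGE2 replicate 1 or 2, 1 PGE2 library is left. The median log2 difference over the 32 genes was then -0.73 and -0.71, against -0.72 in the main fit. Of the 9 neutrophil markers 8 were lower after PGE1 than after PGE2 and 1, Mmp8, did not pass; their sum was 1538 to 2231 FPKM after PGE1 against 5865 to 5922 FPKM after PGE2, and their part was not tested.

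The genotype comparison asked how the pathway stands in LSCs without Tcf1 and Lef1. Of 32 genes 12 rose in dKO (37.5%), 1 fell and 19 did not pass. The rises took in 5 of 10 genes of upper glycolysis, 2 of 4 of lower glycolysis, 3 of 5 of lactate and pyruvate fate, Hif1a and 1 of 7 other HIF targets. Hk1, Hk2, Pfkp, Pfkfb3, Aldoc, Pgam1 and Pkm were among the enzymes that did not pass. Of all 10721 genes tested 40.9% passed, 18.0% higher and 22.9% lower, so that the share of these 32 genes that passed (40.6%) was near that of all genes. The dKO libraries lay above all WT libraries for 18 of the 32 genes and below them for 2, where 54.9% of all genes did not overlap, 25.3% higher and 29.6% lower. The median log2 difference was 0.24 over the 32 genes and -0.01 over all genes.

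Enzymes of the pathway's trunk made up most of the rises. Eno1 stood at 287.3, 210.8 and 238.5 FPKM in dKO against 173.5, 156.3 and 173.1 FPKM in WT (0.54, SE 0.10, limma adjusted p = 0.00543). Ldha stood at 796.3, 596.1 and 616.5 FPKM in dKO against 497.6, 460.0 and 490.2 FPKM in WT (0.46, SE 0.10, limma adjusted p = 0.0103). Tpi1 stood at 466.2, 350.8 and 368.4 FPKM in dKO against 291.8, 275.5 and 298.8 FPKM in WT (0.44, SE 0.10, limma adjusted p = 0.0105). In all 3 genes dKO replicate 1 was far above the other dKO libraries, which still lay above every WT library. Pgk1 stood at 60.7, 42.3 and 42.6 FPKM in dKO against 34.4, 34.5 and 35.0 FPKM in WT (0.45, SE 0.13, limma adjusted p = 0.0236), lost without any 1 of the WT libraries (0.0629 to 0.0702). Aldoa stood at 945.4, 696.8 and 764.9 FPKM in dKO against 620.8, 573.4 and 618.8 FPKM in WT (0.40, SE 0.10, limma adjusted p = 0.0181), lost without WT replicate 2 (0.0690) and after quantile normalization, which cut the difference to 0.16 (0.174). Gpi1, Pfkl and Pfkm rose by smaller amounts, 1.21-, 1.27- and 1.21-fold. Of these, Gpi1 (0.0539) and Pfkl (0.0594) were lost without WT replicate 2 and after quantile normalization (0.0511 for Gpi1 and 0.0666 for Pfkl), and Pfkm without any 1 of the WT libraries (0.0542 to 0.0732).

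Slc16a1 had the smallest p of the 32 genes, at 35.2, 39.0 and 40.4 FPKM in dKO against 27.0, 28.7 and 28.8 FPKM in WT (0.43, SE 0.06, limma adjusted p = 0.000979). Unlike most, its lowest dKO library was replicate 1. Pdk3 rose 1.18-fold (limma adjusted p = 0.00345), whereas Pdk1 averaged 28.9 FPKM in dKO and 25.7 FPKM in WT (0.197). Ero1l stood at 105.4, 76.6 and 77.6 FPKM in dKO against 59.5, 58.4 and 63.1 FPKM in WT (0.50, SE 0.11, limma adjusted p = 0.0112). Hif1a rose 1.12-fold (limma adjusted p = 0.0234), a call lost without any 1 of the libraries except dKO replicate 1 (0.0522 to 0.0920).

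Ankrd37 was the 1 gene that fell, at 7.54, 3.70 and 4.11 FPKM in dKO against 10.0, 10.8 and 11.0 FPKM in WT (-0.98, SE 0.20, limma adjusted p = 0.00708). Neither glucose transporter passed with limma or with voom, and neither had an unadjusted p under 0.05. Slc2a1 had the smaller p, at 91.7, 56.6 and 55.4 FPKM in dKO against 57.5, 56.4 and 60.0 FPKM in WT (0.19, 95% interval -0.21 to 0.59, limma adjusted p = 0.419). Only dKO replicate 1 stood above WT for that gene. G6pdx averaged 64.9 ± 1.26 FPKM in dKO and 63.0 ± 1.34 FPKM in WT (interval -0.04 to 0.12, limma adjusted p = 0.359).

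The calls of 6 genes were kept under each of the 15 alternatives tried: Tpi1, Eno1, Ldha, Slc16a1, Ero1l and Ankrd37. The other calls were each lost under at least 1 alternative. Pdk3 was lost only in 1 fit of all libraries (limma adjusted p = 0.0739). None of the 13 calls was lost without dKO replicate 1, the library whose genotype field reads wild type. That library was the highest dKO library for 29 of the 32 genes, against 39.2% of all genes. Without it 19 genes passed, 16 higher and 3 lower, and over all genes 49.2% passed, against 40.9% in the main fit. Slc16a3, Pfkp, Aldoc and P4ha2 were then also called higher, while Slc2a3 (-0.66, limma adjusted p = 0.000201) and Ndrg1 (-0.63, 0.000349) joined Ankrd37 among the lower. Slc2a3 stood at 37.1 FPKM in dKO replicate 1 and at 14.8 and 17.3 FPKM in dKO replicates 2 and 3, against 25.0, 26.1 and 26.3 FPKM in WT. Without WT replicate 2 the count was 7, with 6 higher, and over all genes 29.2% passed. Over all genes 28.7% passed without WT replicate 1 and 28.6% without WT replicate 3. WT replicate 2 was the lowest WT library for 25 of the 32 genes, against 31.5% of all genes. The direction of calls over all genes also moved with scaling: the share of calls that were rises in dKO was 44.1% as deposited and 60.2% after quantile normalization.

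**Figure D5:**
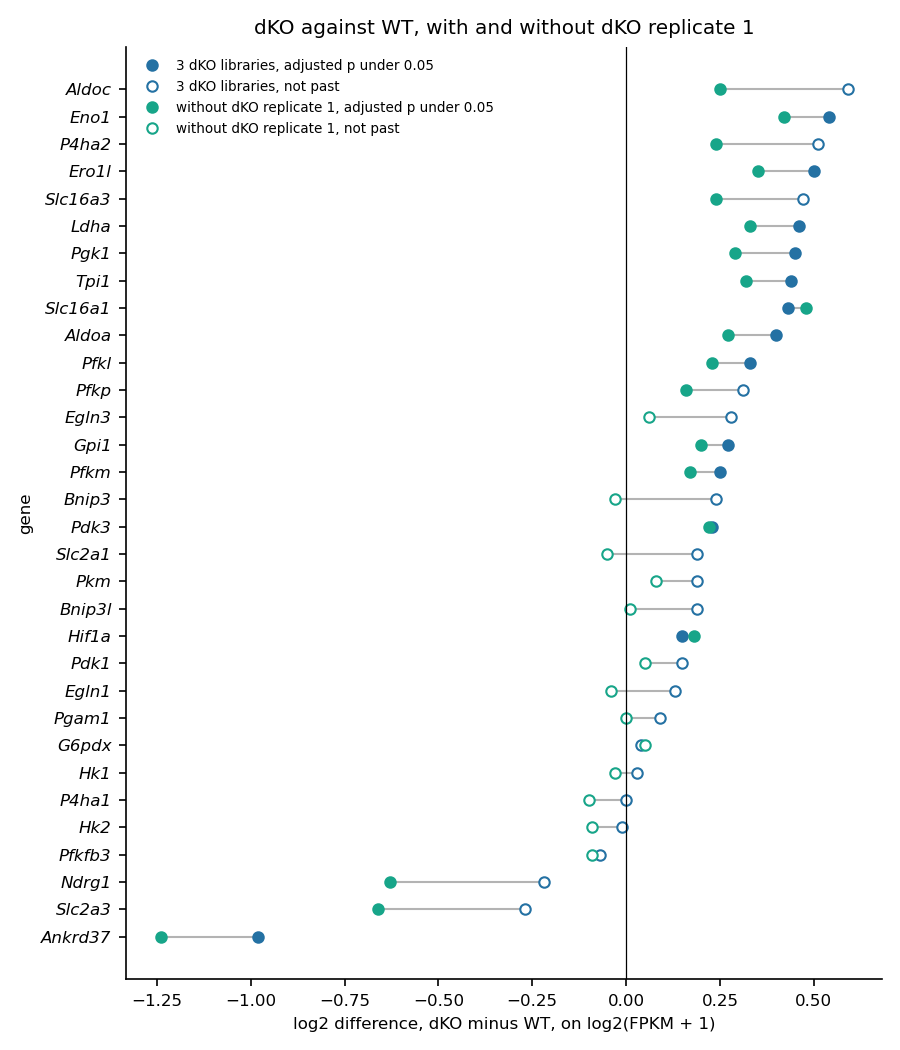
Log2 differences between dKO and WT, on log2(FPKM + 1), with all 3 dKO libraries (blue) and without dKO replicate 1 (green), for the 32 genes; filled points have a limma adjusted p under 0.05. Slc2a3 and Ndrg1 move left and become filled without that library, at -0.66 and -0.63, while Slc16a1 stays near 0.43 to 0.48.

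Markers of other blood cells differed between the genotypes too. Summed monocyte markers (8 of the 9 listed were in the files) were at 117.6 to 131 FPKM in dKO and 795.6 to 830 FPKM in WT, summed megakaryocyte markers at 53.7 to 103.9 FPKM in dKO and 227.9 to 249.1 FPKM in WT, with all 8 and all 6 genes lower in dKO. Neutrophil markers split: 3 rose in dKO (Elane, Mpo and S100a8), 5 fell (Ltf, Camp, Lcn2, Ngp and Mmp8) and S100a9 did not pass, and the sum, set mainly by Elane and Mpo, was 7463 to 7600 FPKM in dKO and 5829 to 6152 FPKM in WT. Camp was at 5.33 to 10.3 FPKM in dKO against 46.9 to 50.4 FPKM in WT. No marker of these lists was at 0 in every library of a group. Their part in the result was not tested.

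DMSO-treated and untreated WT cells were set side by side for the level of the solvent group, which is the base of both prostaglandin comparisons. The WT libraries are also the base of the dKO comparison. Genes of the pathway were mostly lower after DMSO: of 32 genes 18 fell (56.2%), 4 rose and 10 did not pass, where 56.6% of all 11115 genes passed, 30.7% lower and 26.0% higher. The DMSO libraries lay below all WT libraries for 18 of the 32 genes and above them for 6, where 64.3% of all genes did not overlap, 35.0% lower and 29.3% higher. The median log2 difference was -0.21 over the 32 genes and -0.03 over all genes. Time in culture, solvent and library depth cannot be told apart here. Of the 9 neutrophil markers 5 fell and 3 rose after DMSO, with sums of 4004 to 4754 FPKM after DMSO against 5829 to 6152 FPKM in WT. The 6 stem and progenitor genes summed to 184.5 to 190.1 FPKM after DMSO against 229.4 to 234.3 FPKM in WT. Of them 2 rose, 2 fell and 2 did not pass. Myb stood at 56.7 to 61.1 FPKM after DMSO against 91.1 to 94.5 FPKM in WT. In the other direction, Gata2 stood at 38.3 to 40.7 FPKM after DMSO against 26.6 to 29.1 FPKM in WT. The 6 mast cell genes summed to 179.1 to 198.9 FPKM after DMSO against 138.9 to 140.4 FPKM in WT. Of those 3 rose, 1 fell and 2 did not pass. The part of these markers was not tested.

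Pdk1 showed the largest fall, at 16.1, 14.9 and 15.0 FPKM after DMSO against 26.0, 24.4 and 26.7 FPKM in WT (-0.71, SE 0.05, limma adjusted p = 2.19e-05). Ndrg1 rose, at 36.2, 35.2 and 35.6 FPKM after DMSO against 22.7, 19.7 and 22.7 FPKM in WT (0.70, SE 0.06, limma adjusted p = 4.54e-05). Neither gene overlapped between the groups. Pfkl stood at 70.5, 59.2 and 58.4 FPKM after DMSO against 98.8, 94.0 and 103.3 FPKM in WT (-0.65, SE 0.08, limma adjusted p = 0.000209). Pfkm stood at 6.84, 6.07 and 5.63 FPKM after DMSO against 10.2, 9.80 and 9.91 FPKM in WT (-0.62, SE 0.07, limma adjusted p = 0.000169). Tpi1, Ldha, Slc16a1 and Pdk3 fell by 0.52, 0.51, 0.47 and 0.43 on the log2 scale. In each of these 8 genes no DMSO library lay within the WT range. All 5 genes of lactate and pyruvate fate fell, including Slc16a3 (limma adjusted p = 0.0276), lost without any 1 of DMSO replicates 2 and 3 (0.0876 and 0.0825) or WT replicates 1 and 3 (0.105 and 0.104). Hif1a (1.19-fold), Pfkfb3 (1.24-fold) and G6pdx (1.14-fold) rose with Ndrg1. Neither glucose transporter passed with limma or voom, and neither had an unadjusted p under 0.05; Slc2a3, with the smaller p, averaged 24.0 FPKM after DMSO and 25.8 FPKM in WT (limma adjusted p = 0.0813). Without DMSO replicate 1 the count was 27, with 23 lower and 4 higher, and over all genes 64.8% passed.

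Genes of hypoxia signatures outside the 33 were counted as a list, and 35 of its 45 genes in the files were tested in each comparison. After PGE1 11 were higher and 16 lower than after DMSO, with a median of -0.23 (77.1% called, against 49.1% of all genes). The 4 with the smallest p were Pgf, a vascular growth factor (0.358 against 18.2 FPKM, limma adjusted p = 2.46e-07), Ddit4, an inhibitor of mTORC1 (128.4 against 29.1 FPKM, 7.96e-07), Vegfa, the main angiogenic factor (55.2 against 24.3 FPKM, 8.08e-06) and Cxcr4, a chemokine receptor (70.7 against 40.8 FPKM, 1.71e-05). The last 3 were higher and Pgf lower. After PGE2 4 were higher and 3 lower than after DMSO (20.0% called, against 5.57% of all genes), with Pgf lower (3.38 against 18.2 FPKM, limma adjusted p = 8.76e-05) and Vegfa (37.6 against 24.3 FPKM, 0.00381), the lipoprotein receptor Vldlr (3.81 against 2.55 FPKM, 0.0238) and the oxidase Ero1lb (5.67 against 4.12 FPKM, 0.0242) higher. Between PGE1 and PGE2 10 were higher and 18 lower (80.0%, against 53.9% of all genes). In dKO 13 were higher and 7 lower than in WT (57.1%, against 40.9% of all genes); Pgf (0.129 against 2.21 FPKM, limma adjusted p = 2.86e-05), the heme oxygenase Hmox1 (3.78 against 20.1 FPKM, 3.12e-05) and the taurine transporter Slc6a6 (20.6 against 28.6 FPKM, 6.84e-05) were lower and the transferrin receptor Tfrc (131.9 against 87.7 FPKM, 3.95e-05) higher. After DMSO 13 were higher and 13 lower than in WT (74.3%, against 56.6% of all genes), among them Hmox1 at 192.7 against 20.1 FPKM (limma adjusted p = 1.39e-08).

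Of 13 regulators of HIF stability or activity tested after PGE1, 3 were higher and 3 lower than after DMSO; at 46.2% this was near the 49.1% of all genes called, so the list as a whole gives no result. Cited2, which competes with HIF-1 for its coactivators, fell to 59.4 FPKM against 88.9 FPKM (limma adjusted p = 0.000987). Arnt, the beta subunit of HIF-1, rose to 15.7 against 11.2 FPKM (0.00140), Hif1an, an asparagine hydroxylase that blocks HIF-1 activity, to 8.13 against 5.55 FPKM (0.00182), and Vhl, which targets the alpha subunit for degradation, to 11.1 against 8.17 FPKM (0.00315). None of the 13 passed after PGE2 with limma or with voom, and 1 was lower at an unadjusted p under 0.05. Between PGE1 and PGE2, 6 were higher and 4 lower (76.9%, against 53.9% of all genes). In dKO 2 were higher and 2 lower than in WT (30.8%, against 40.9% of all genes), with Cited2 at 139.4 against 92.0 FPKM (limma adjusted p = 3.11e-05). After DMSO 5 of 14 were higher and 3 lower than in WT (57.1%, against 56.6% of all genes).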

How the data were processed

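Total RNA of sorted LSCs was sequenced on Illumina libraries, per the labels' protocols. Reads were processed with CASAVA 1.8, TopHat and Cufflinks on build mm9, per the submitters' processing notes. Strand handling, gene annotation and the counting of reads shared by near-identical genes are not stated in the labels or notes. The authors deposited 1 FPKM value per gene and library, with no further scaling recorded. In all 19057 genes with reads (100%) the deposited FPKM were whole multiples of 1 read's worth within 0.0001 of a read, which gave reads and depth. Two-sided tests on log2(FPKM + 1) were run with limma 3.58.1 (R 4.3.3; linear models and moderated variances with an intensity trend) on genes averaging 1 FPKM or more across a fit's libraries, with Benjamini-Hochberg adjustment over all genes and a threshold of 0.05. The 6 dKO and WT libraries, the 8 treated libraries, and the 6 DMSO and WT libraries were 3 fits. Log2 differences on log2(FPKM + 1) understate changes of low genes; folds are ratios of mean FPKM. Python 3.11.15, numpy 2.4.6, pandas 2.3.3 and matplotlib 3.10.9 did the rest. Alternatives were other pseudocounts, filters and scalings, limma voom on recovered reads, 1 fit of all libraries, a replicate block and leaving out each library. Per-library values are given for the 8 genes with the largest called log2 difference in a comparison (ties included) and, where no gene of a role passed, for the one with the smallest p; Hif1a, Slc16a3 and the other genes named beyond these were added after their values were seen. Up to 4 genes with the smallest p are named from each other pathway list. The genes, lists and alternatives were chosen with earlier results of these data known. No coordinates of mm9 are printed, since the reference at hand is GRCm38. Listed symbols that are not in the files under those names were not analysed here.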

Additional observations from a re-analysis of the deposited data

How the results depend on the processing

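No gene changed direction while past the threshold under any alternative tried. The calls kept under every alternative tried were 21 of 25 for PGE1 against DMSO, 20 of 24 for PGE1 against PGE2, 15 of 22 for DMSO against WT, 6 of 13 for dKO against WT (Tpi1, Eno1, Ldha, Slc16a1, Ero1l and Ankrd37) and 0 of 7 for PGE2 against DMSO. Leaving out 1 DMSO or PGE1 library gave 23 to 27 calls for PGE1 against DMSO (4 to 6 higher, 19 to 21 lower). It gave 24 to 25 for PGE1 against PGE2 (2 higher, 22 to 23 lower) and 2 to 14 for PGE2 against DMSO (2 to 13 higher, 0 to 1 lower). Leaving out 1 library gave 20 to 27 for DMSO against WT (4 higher, 16 to 23 lower) and 7 to 19 for dKO against WT (6 to 16 higher, 1 to 3 lower). Over all genes, leaving out 1 DMSO or PGE1 library gave 40.4% to 54.6% called for PGE1 against DMSO. The shares were 49.1% to 59.3% for PGE1 against PGE2 and 2.10% to 10.9% for PGE2 against DMSO. Leaving out 1 library gave 28.6% to 49.2% for dKO against WT and 47.7% to 64.8% for DMSO against WT. After PGE2, voom gave 13 calls (12 higher), with 6.92% of all genes called, and 1 fit of all libraries gave 0 lower. Leaving out DMSO replicate 1 and PGE1 replicate 2 together, chosen after seeing the data, gave 15 (14 higher), with 15.7% of all genes called. The cause was not tested. In dKO against WT no filter gave 2 lower, Ankrd37 and Eno2, the gene that the filter leaves out, with 28.3% of all genes called. In DMSO against WT quantile normalization gave 7 higher, with 58.6% of all genes called. There 1 fit of all libraries gave 11 lower, with 48.9% of all genes called. The cause of these 2 shifts in DMSO against WT was not tested. Over all genes, 44.1% of the genes called in dKO against WT were higher, against 54.7% with a minimum of 5 FPKM, 60.2% after quantile normalization, 35.2% with no filter and 34.4% in 1 fit of all libraries. Samples with the same replicate number did not deviate together in every pair (correlations of 0.04, 0.12 and 0.00 for dKO and WT, and -0.14, -0.25 and 0.25 for PGE1 and DMSO). With so few libraries per group this cannot exclude a pairing. In the main fits the numbers were used only as names. With a replicate block, calls after PGE2 numbered 3, with 3 higher and 0 lower, and 2.39% of all genes were called. P4ha2 after PGE1 and Eno2 rest on few reads, with a total of 62 and 149 reads after PGE1.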

Other observations

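Downstream of pyruvate, 29 genes of pyruvate entry and the TCA cycle were tested around the prostaglandins. After PGE1 2 were higher and 13 lower than after DMSO, with a median log2 difference of -0.17; the share called, 51.7%, was near the 49.1% of all genes, while the share lower was 44.8% against 25.5% of all genes. Idh2 and Idh3a, mitochondrial isocitrate dehydrogenases, fell to 30.2 against 70.3 FPKM (limma adjusted p = 0.000139) and to 15.4 against 32.6 FPKM (0.000484), Suclg1, a succinyl-CoA ligase subunit, fell to 34.5 against 50.7 FPKM (0.000914), and Pdk2, another pyruvate dehydrogenase kinase, rose to 2.76 against 1.11 FPKM (0.000541). None passed after PGE2 with limma or voom, and 3 were higher at an unadjusted p under 0.05. Between PGE1 and PGE2 1 was higher and 13 lower (48.3% called, against 53.9% of all genes), led by Idh2 (30.2 against 93.2 FPKM, limma adjusted p = 5.39e-05). In dKO 14 of 28 were higher than in WT (50.0%, against 18.0% of all genes) and none lower with limma, voom or an unadjusted p under 0.05, among them Idh3a (62.6 against 50.7 FPKM, limma adjusted p = 0.000368) and Pcx, pyruvate carboxylase (3.85 against 2.27 FPKM, 0.000972). After DMSO 21 of 29 were lower than in WT (72.4%, against 30.7% of all genes) and none higher by the same 3 measures, led by Idh2 (70.3 against 125.6 FPKM, limma adjusted p = 3.24e-05).

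Of 7 other pentose phosphate genes, 5 were higher in dKO than in WT (71.4%, against 18.0% of all genes) and none lower with limma, voom or an unadjusted p under 0.05, with Rpia, ribose phosphate isomerase, at 79.3 against 54.4 FPKM (limma adjusted p = 5.86e-05) and Tkt, transketolase, at 310.7 against 254.4 FPKM (0.000887). After PGE1 Taldo1, transaldolase, was higher than after DMSO (358.0 against 258.5 FPKM, limma adjusted p = 0.0290), while Rpia and Rpe were lower. The share called after PGE1 was 42.9%, against 49.1% of all genes. None passed after PGE2 with limma or voom, and 1 was higher at an unadjusted p under 0.05. Between PGE1 and PGE2 2 were higher and 2 lower (57.1% called, against 53.9% of all genes). After DMSO 2 were higher and 3 lower than in WT (71.4%, against 56.6% of all genes). Pgd, phosphogluconate dehydrogenase, stood at 285.1 FPKM after DMSO against 195.3 FPKM in WT (limma adjusted p = 3.62e-05).

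Of 18 other isozymes and side enzymes of glycolysis, 5 were higher and 4 lower after PGE1 than after DMSO (50.0% called, against 49.1% of all genes). Adpgk, an ADP-dependent glucokinase, fell to 10.6 against 19.2 FPKM (limma adjusted p = 1.56e-05) and Hk3, the hexokinase of myeloid cells, to 34.2 against 73.5 FPKM (6.55e-05), while Pgm2l1, which makes glucose bisphosphate, rose to 8.15 against 4.04 FPKM (0.000167) and Bpgm, bisphosphoglycerate mutase, to 8.56 against 5.17 FPKM (0.000732). Between PGE1 and PGE2 7 were higher and 5 lower (66.7% called, against 53.9% of all genes). After DMSO 4 were higher and 6 lower than in WT (55.6%, against 56.6% of all genes). After PGE2 1 was higher (Adpgk, 23.5 against 19.2 FPKM, limma adjusted p = 0.0422) and 2 lower (Fbp1 and Fbp2, fructose bisphosphatases). The share called after PGE2 was 16.7%, against 5.57% of all genes. In dKO 2 of 16 were higher and 3 lower than in WT (31.2%, against 40.9% of all genes). Hk3 stood at 145.0 FPKM in dKO against 107.8 FPKM in WT (limma adjusted p = 0.000435). Fbp2, a muscle fructose bisphosphatase, was at 2.16 FPKM after DMSO and 0.00777 FPKM in WT.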
